A study of Homo sapiens with 3 samples.

Results

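Collagen chain genes were taken as the protein-coding genes whose RefSeq symbol is COL, a number, A and a number, which gave 44 of the 20037 protein-coding genes on the main chromosomes of GRCh38. Their ends and bodies were compared with accessible intervals mapped by ATAC-seq, in which the Tn5 transposase cuts open DNA and tags it for sequencing. The cells were neurons obtained with human NGN2, a neurogenic transcription factor, from KOLF2.1J, a reference line of human pluripotent stem cells, at day 14 of neuronal differentiation. The 3 biological replicates form 1 group, with no other genotype, treatment or time, and the labels do not say how NGN2 was driven or whether the line is a clone. The authors combined them into 1 list of 145092 summits in 65234 distinct intervals. The list holds no value per replicate, so no spread between replicates can be given and no difference was tested. Shares carry Wilson 95% intervals and tag counts exact Poisson 95% intervals. Both cover counting error only, since PCR tags are not independent molecules and genes are not replicates. In bulk nuclei a weak summit in all cells cannot be told apart from a strong summit in a few.

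Collagens are secreted or membrane-bound proteins in which 3 chains wind into a triple helix. Fibrillar chains build the banded fibres of bone, cartilage, skin and tendon, and type IV chains build the sheet of the basement membrane. The remaining chains decorate fibres, form beaded filaments, anchor epithelia or span the cell membrane. In nervous tissue the fibrillar chains are made mostly by meningeal and vascular cells, whereas neurons are known to make some membrane-spanning and fibril-associated chains. The 6 type IV genes lie head to head in 3 pairs, each pair sharing the DNA between its start sites. Here 11 genes were classed as fibrillar, 6 as basement membrane (type IV) and 27 as other.

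The sequences between the type IV pairs are shown first, because each lies whole within 1 accessible interval that reaches the outer ends of both genes. They are RefSeq sequences of GRCh38.p14, 5′ to 3′ on the plus strand. The 126 bases between COL4A1 and COL4A2 are chr13:110307158-110307283, and the 135 bases between COL4A4 and COL4A3 are chr2:227164489-227164623. COL4A6 and COL4A5 lie 379 bases apart, of which the 250 next to COL4A5 are chrX:108439588-108439837. Capitals mark the GC box word GGGCGG and the CCAAT word on either strand.
COL4A1-COL4A2: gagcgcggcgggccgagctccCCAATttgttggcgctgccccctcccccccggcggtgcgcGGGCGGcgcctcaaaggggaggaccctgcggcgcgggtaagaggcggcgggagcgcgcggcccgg
COL4A4-COL4A3: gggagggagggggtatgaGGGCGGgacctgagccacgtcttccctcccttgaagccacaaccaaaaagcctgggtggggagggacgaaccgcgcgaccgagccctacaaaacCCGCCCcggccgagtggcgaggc
COL4A6-COL4A5: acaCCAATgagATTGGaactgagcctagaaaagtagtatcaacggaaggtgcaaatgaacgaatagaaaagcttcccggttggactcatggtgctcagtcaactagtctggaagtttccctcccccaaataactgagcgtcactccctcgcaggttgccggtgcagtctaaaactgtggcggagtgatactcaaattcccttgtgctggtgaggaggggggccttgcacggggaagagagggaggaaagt
The first stretch holds 1 GC box and 1 CCAAT word in 80.2% G and C. The second holds 2 GC boxes and no CCAAT word, and the stretch beside COL4A5 holds 2 CCAAT words and no GC box in 51.2% G and C. A word match is a description of these letters and not a binding site.

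Promoters of other members show the range of sequence at collagen starts, as the 250 bases upstream of a start that is also the outer end of the gene. COL11A1 (chr1:103108523-103108772, minus strand) and COL5A1 (chr9:134641553-134641802) are the fibrillar members that met this condition and had a summit within 1 kb of that start. COL19A1 (chr6:69866306-69866555) and COL12A1 (chr6:75206054-75206303, minus strand) had the highest and lowest fold enrichment among such other members. COL10A1 (chr6:116217145-116217394, minus strand) is accessible with 1 CpG in the window, and COL6A2 (chr21:46097862-46098111) has no summit near it despite 28 CpGs; both were picked after their values were seen. Each is given on the strand of its gene, with the same words in capitals.
COL11A1: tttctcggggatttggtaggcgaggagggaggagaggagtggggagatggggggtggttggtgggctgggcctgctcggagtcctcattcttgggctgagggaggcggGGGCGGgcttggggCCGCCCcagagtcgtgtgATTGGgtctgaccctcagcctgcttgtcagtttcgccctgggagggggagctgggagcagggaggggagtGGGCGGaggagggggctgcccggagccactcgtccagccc
COL5A1: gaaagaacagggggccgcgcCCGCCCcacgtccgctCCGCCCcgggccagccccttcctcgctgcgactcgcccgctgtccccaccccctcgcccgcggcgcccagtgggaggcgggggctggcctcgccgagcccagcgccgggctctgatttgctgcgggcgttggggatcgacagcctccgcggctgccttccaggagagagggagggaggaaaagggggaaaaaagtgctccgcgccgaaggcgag
COL19A1: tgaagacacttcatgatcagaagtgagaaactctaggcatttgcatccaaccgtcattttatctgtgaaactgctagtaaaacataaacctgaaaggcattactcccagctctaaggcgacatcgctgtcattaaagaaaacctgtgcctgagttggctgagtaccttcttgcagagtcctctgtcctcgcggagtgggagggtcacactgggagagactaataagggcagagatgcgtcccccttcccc
COL12A1: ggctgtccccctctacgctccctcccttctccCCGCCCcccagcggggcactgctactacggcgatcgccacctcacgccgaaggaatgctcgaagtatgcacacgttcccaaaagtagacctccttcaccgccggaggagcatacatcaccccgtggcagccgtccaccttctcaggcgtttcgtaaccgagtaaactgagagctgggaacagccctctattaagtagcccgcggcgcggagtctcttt
COL10A1: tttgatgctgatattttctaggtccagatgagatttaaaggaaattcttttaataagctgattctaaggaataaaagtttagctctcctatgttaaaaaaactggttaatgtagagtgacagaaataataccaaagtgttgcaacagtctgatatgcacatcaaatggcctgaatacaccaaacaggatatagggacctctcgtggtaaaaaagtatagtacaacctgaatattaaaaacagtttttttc
COL6A2: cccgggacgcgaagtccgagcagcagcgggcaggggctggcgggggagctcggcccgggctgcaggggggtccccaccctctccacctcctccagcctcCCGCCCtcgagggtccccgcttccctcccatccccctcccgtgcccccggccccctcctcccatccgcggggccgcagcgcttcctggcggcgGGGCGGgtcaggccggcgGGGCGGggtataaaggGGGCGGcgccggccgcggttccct
COL6A2 holds 4 GC boxes and a TATAAA word upstream of its start, COL11A1 3 GC boxes and 1 CCAAT word, and COL5A1 2 GC boxes. COL19A1 and COL10A1 hold neither marked word. The share of G and C runs from 32.4% in COL10A1 to 79.6% in COL6A2.

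A gene end was called accessible when any summit of the list lay within 1 kb of either outer end of the gene. By this rule 25 of 44 collagen genes (56.8%, Wilson 95% interval 42.2 to 70.3%) had an accessible end, beside 68.8% of all protein-coding genes. The basement membrane class had 6 of 6 (100%, interval 61.0 to 100%), the fibrillar class 6 of 11 (54.5%, interval 28.0 to 78.7%) and the other class 13 of 27 (48.1%, interval 30.7 to 66.0%). Within 500 bp the fibrillar share (36.4%) was below that of the other class (40.7%). The 3 intervals overlap, and the 6 type IV genes rest on 3 intervals of the list, so they are not 6 separate observations. With genes that share an interval counted once, 22 of 41 units were accessible (53.7%). No member was accessible at both ends.

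Accessible ends were found mainly among the longer members. Of the 18 collagen genes of up to 100 kb, 4 had an accessible end (22.2%, interval 9.0 to 45.2%), beside 66.1% of all 16681 protein-coding genes of that length. Of the 26 longer collagen genes, 21 did (80.8%, interval 62.1 to 91.5%), beside 82.2% of all 3356 such genes. The gap was widest between 25 and 100 kb, with 2 of 14 collagens (14.3%) against 77.2% of protein-coding genes. The basement membrane genes are all longer than 100 kb. Among the longer genes the classes had 4 of 5 fibrillar, 6 of 6 basement membrane and 11 of 15 other members accessible, and among the shorter ones 2 of 6 fibrillar and 2 of 12 other. The edge of 100 kb was set after values had been seen; with an edge of 50 kb the shorter genes had 3 of 12. Class and length overlap in this family and cannot be told apart with so few genes.

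**Figure D1:**
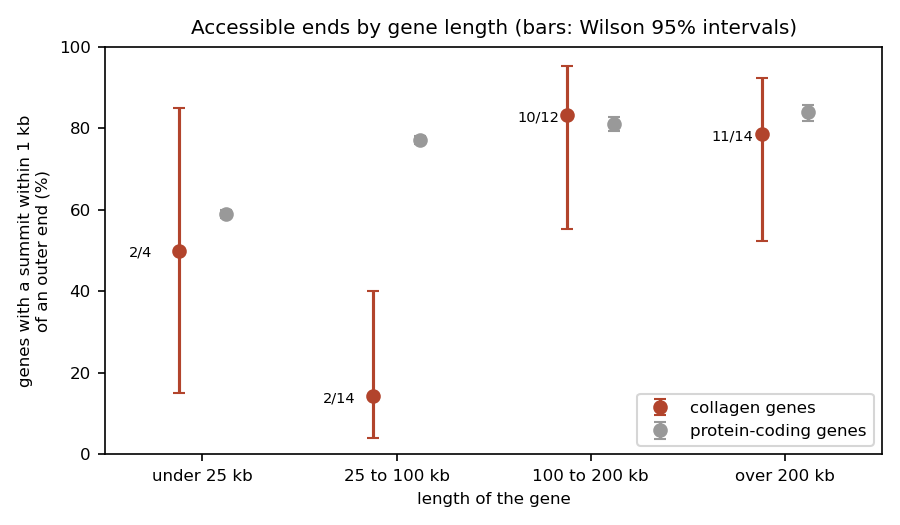
Share of genes with a summit within 1 kb of an outer end (y axis, percent) in 4 classes of gene length (x axis), for collagen genes (red, with counts) and all protein-coding genes (grey); bars are Wilson 95% intervals. Collagens of 25 to 100 kb stand at 2 of 14, against 77.2% of protein-coding genes, while those over 100 kb lie close to the grey points.

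The shorter members with an accessible end were COL1A1, COL6A1, COL10A1 and COL11A2, and 14 had none. COL1A2, a chain of the type I collagen of bone and skin, COL2A1, the cartilage collagen, and COL3A1, the chain of type III collagen in vessels and skin, are among those without, with COL5A3, a minor fibrillar chain. The others are COL6A2 and COL6A3 (beaded filaments), COL7A1 (anchoring fibrils of skin), COL8A2 (a network collagen of the cornea), COL9A1, COL9A2 and COL9A3 (the type IX collagen on cartilage fibrils), COL16A1 and COL20A1 (fibril-associated) and COL17A1 (a membrane-spanning chain of the skin). The 5 longer members without one are COL18A1, COL21A1, COL22A1, COL27A1 and COL28A1, of which COL21A1 and COL22A1 encode fibril-associated chains. The nearest summit to an outer end of COL3A1 was 81757 bp away and that of COL22A1 109256 bp away, the greatest distances in the family. COL27A1, COL2A1 and COL9A2 fell just outside the limit, at 1332, 1637 and 1851 bp inside the gene. COL11A2 was just inside it at 873 bp.

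At the accessible ends the collagen summits were weak. Fold enrichment here is the authors' ratio of tags at a summit to the local background. Its median over the strongest summit of the 25 accessible members was 5.41, beside 10.4 over all accessible protein-coding genes. Of the 25 members, 24 were below 10.4 and 18 were in the lowest 25% of accessible genes. Both counts include the 6 type IV genes, which share 3 summits, so the 25 ends rest on 22 distinct intervals. The median of 5.41 is itself the value shared by COL4A3 and COL4A4. Tag counts, recovered from the ratio and p-value of each summit, gave a median of 301 tags in the members and 931 in all accessible protein-coding genes. COL5A2 and COL11A1 exceeded 931 tags. Class medians of fold enrichment were 8.71 for fibrillar, 5.41 for basement membrane and 4.69 for other members. Accessible ends ranged from 3.28 to 12.8 in the fibrillar class, from 4.55 to 6.12 in the basement membrane class and from 3.13 to 9.74 in the other class, so the ranges overlap.

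**Figure D2:**
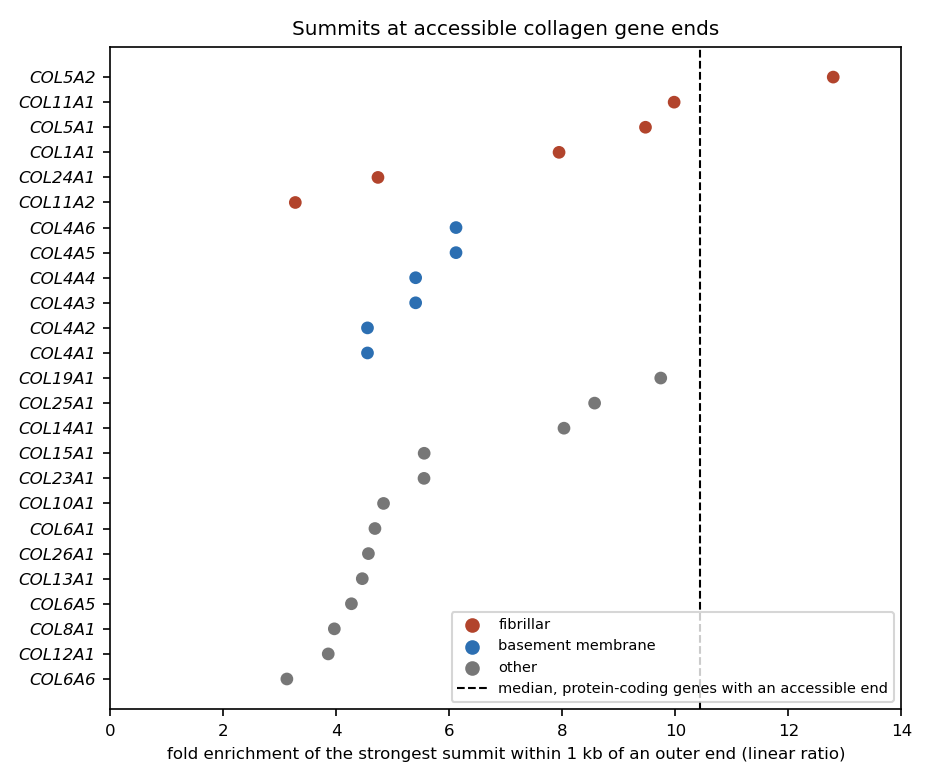
Fold enrichment of the strongest summit within 1 kb of an outer end (x axis, linear ratio) for the 25 accessible collagen genes (rows), coloured by class; the dashed line is the median of accessible protein-coding genes, 10.4. COL5A2 at 12.8 is to the right of the line and the other 24 genes are to its left; the type IV pairs have equal values because each pair shares a summit.

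The strongest end was that of COL5A2, a chain that helps to set the width of type I fibres. Its summit on chromosome 2, in the interval 189440678 to 189441963, had a fold enrichment of 12.8 and 1752 tags (interval 1671 to 1836), percentile 70.3 of accessible genes. The same summit lies within 1 kb of an end of WDR75, a gene for a ribosome biogenesis factor, so it cannot be assigned to COL5A2 alone. COL11A1, a minor fibrillar chain of cartilage, had 9.98 and 1310 tags (interval 1240 to 1383) with the summit 160 bp upstream of its start on chromosome 1, and no other gene end within 1 kb. COL5A1, the partner chain of COL5A2, had 9.47 and 731 tags, 141 bp upstream of its start. COL1A1, the main chain of type I collagen, had 7.94 and 469 tags (interval 428 to 513). This COL1A1 summit lay 954 bp inside the gene, close to the limit of the rule, and another at 517 bp had a fold enrichment of 1.81. COL24A1, a fibrillar chain of developing bone, had 4.74 and 268 tags. COL11A2 is on the minus strand, and its summit of 3.28 with 132 tags lay beyond the end opposite to its listed starts. None of its 4 listed starts had a summit within 1 kb.

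The type IV pairs had summits in or beside the shared stretch. For COL4A1 and COL4A2, which encode the chains present in nearly every basement membrane, the strongest summit was 78 bp upstream of COL4A1 and 49 bp upstream of COL4A2, between the 2 starts. It had a fold enrichment of 4.55 and 408 tags (interval 369 to 449.6). For COL4A3 and COL4A4, chains of the kidney and inner ear, the summit was 60 bp inside COL4A3, with 5.41 and 226 tags (interval 197 to 257). For COL4A5 and COL4A6, the X-linked pair, it was 51 bp upstream of COL4A5 and 329 bp upstream of the outer start of COL4A6, with 6.12 and 209 tags (interval 182 to 239). The tag intervals at COL4A3 and COL4A4 and at COL4A5 and COL4A6 overlap, and both are below that at COL4A1 and COL4A2, which had the highest tag count and the lowest fold enrichment of the 3. The local background was 88.8 tags at COL4A1 and COL4A2, 41.0 at COL4A3 and COL4A4 and 33.3 at COL4A5 and COL4A6. These ends stood at percentiles 10.8, 16.2 and 20.6 of accessible genes by fold enrichment.

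The intervals differed in shape. The one at COL4A1 and COL4A2 was 1937 bp wide with 5 summits, and a further interval of 468 bp lay inside COL4A2. The one at COL4A3 and COL4A4 was 1830 bp wide with 6 summits. At COL4A5 and COL4A6 the interval over the shared stretch was 874 bp wide with 3 summits. A separate interval of 811 bp lay over the second listed start of COL4A6, 1.04 kb inside the gene, with its strongest summit 43 bp upstream of that start, a fold enrichment of 3.60 and 126 tags (interval 105 to 150.02). The X-linked pair thus had separate intervals at the 2 starts of COL4A6.

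**Figure D3:**
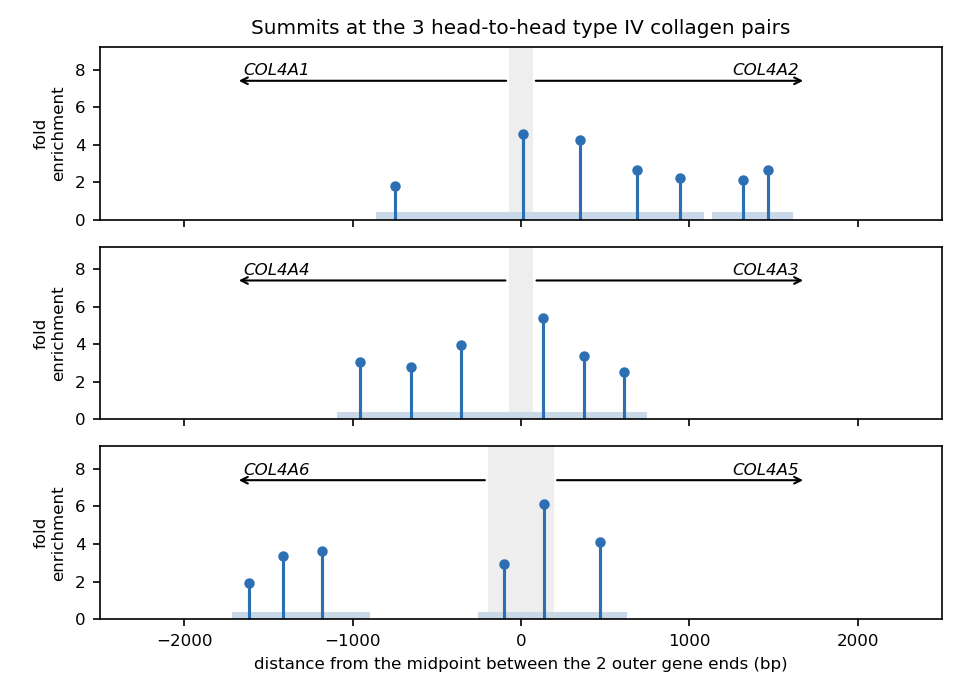
Fold enrichment of each summit (y axis, linear ratio) against distance from the midpoint between the outer gene ends (x axis, bp) for the 3 head-to-head type IV pairs; pale blue bars are the intervals, the grey band is the stretch between the genes and arrows give the direction of each gene. The highest summits, at 4.55, 5.41 and 6.12, lie in the band or within 60 bp of a start beside it.

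Among the other members, COL19A1, a fibril-associated chain known from neurons, led with a fold enrichment of 9.74 and 859 tags (interval 803 to 918). That summit was 894 bp inside the gene, and a weaker summit of 2.95 with 263 tags lay 67 bp from the end. COL25A1, a membrane-spanning collagen of neurons, had 8.57 and 646 tags (interval 597 to 698), 321 bp upstream of its start, where the divergent transcript COL25A1-DT also begins. COL14A1, a fibril-associated chain of tendon and skin, had 8.03 and 707 tags. COL15A1, a chain of the basement membrane zone, had 5.56 and 301 tags, and COL23A1, another membrane-spanning chain, had 5.55 and 346 tags 4 bp from its start. The tag intervals of COL15A1 and COL23A1 overlap. The remaining 8 members of the class, COL6A1, COL6A5, COL6A6, COL8A1, COL10A1, COL12A1, COL13A1 and COL26A1, ranged from 3.13 at COL6A6, a beaded filament chain, to 4.84 at COL10A1. COL12A1, a fibril-associated chain of tendon, combined a low fold enrichment of 3.86 with 487 tags (interval 445 to 532), more than COL10A1 with 180 (interval 155 to 208). Of the 5 beaded filament genes 3 were accessible, and of the 10 fibril-associated genes 3. Of the 4 membrane-spanning genes 3 were, with COL17A1 as the exception.

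For 32 of the 44 members RefSeq promoter windows were at hand, which give the strand and 44 starts, some inside genes. COL1A1, COL1A2, COL2A1, COL3A1, COL5A2, COL6A1, COL6A5, COL8A1, COL9A3, COL14A1, COL20A1 and COL22A1 were not among them. A summit lay within 1 kb of a listed start in 21 of 32 (65.6%, interval 48.3 to 79.6%), beside 72.4% of the 15843 protein-coding genes with a window. COL27A1, COL9A1 and COL21A1 had an accessible start without an accessible outer end. COL27A1, a fibrillar chain of cartilage, had 7.47 and 604 tags (interval 557 to 654) at a start 1.44 kb inside the gene. COL9A1 had 5.11 and 240 tags at a start 19.9 kb inside, and COL21A1 had 5.00 and 205 tags at one 146.5 kb inside. In both genes the outermost start had none. COL10A1, known from growth plate cartilage, showed the reverse, with 4.84 and 180 tags at the outermost start and no summit at the starts 58.4 and 91.0 kb inside.

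A promoter window of 300 bases, from 250 before to 50 after the start, was called CpG-rich when at least 50% of it was G or C and its observed to expected CpG ratio was at least 0.6. Each gene was classed by a single window, that of the listed start nearest to its outer end. A summit at any of its listed starts counted as an accessible start, so the summit need not lie at the classed window. Over all protein-coding genes an accessible start was found for 93.0% of genes classed CpG-rich and 37.1% of those classed CpG-poor. Among collagens the values were 13 of 19 (68.4%, interval 46.0 to 84.6%) and 8 of 13 (61.5%, interval 35.5 to 82.3%). The 8 include COL9A1 and COL21A1, which had no summit at the classed start and were counted through a start further inside. The 2 collagen intervals overlap, the first lies below the share of all CpG-rich genes, and the second contains that of all CpG-poor genes. CpG-rich windows made up 59.4% of collagen promoters and 63.1% of protein-coding promoters.

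Gene length divided the CpG-rich collagens. Of the 14 over 100 kb, 13 had an accessible start (92.9%), beside 96.8% of CpG-rich genes of that length. Of the 5 up to 100 kb, 0 had one (interval 0 to 43.4%), beside 92.1% of CpG-rich genes of that length. These 5 are COL6A2, COL7A1, COL8A2, COL9A2 and COL11A2, and the longer exception is COL18A1, a basement membrane zone chain with 86.7% G and C. COL6A2 is the promoter printed above with 28 CpGs. Of the CpG-poor collagens 2 of 6 shorter and 6 of 7 longer ones had an accessible start, beside 32.0% and 68.3% of such genes.

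**Figure D4:**
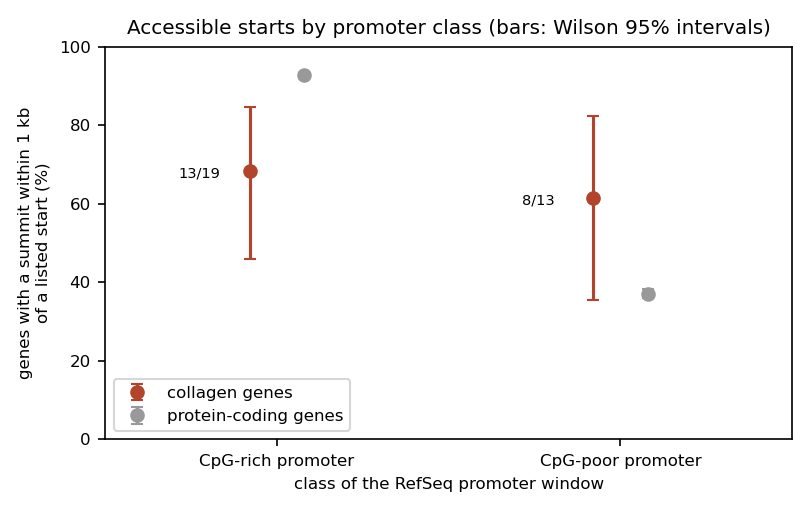
Share of genes with a summit within 1 kb of a listed RefSeq start (y axis, percent) for CpG-rich and CpG-poor promoter windows (x axis), in collagen genes (red, with counts) and all protein-coding genes (grey); bars are Wilson 95% intervals. The red points, 13 of 19 and 8 of 13, lie near each other, while the grey ones are at 93.0% and 37.1%. Each gene is classed by the window nearest to its outer end, while a summit at any of its listed starts counts.

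Short words in the 32 promoter windows were counted on both strands, and none of the 6 words contains another. GGGCGG was in 17 (53.1%), beside 58.3% of protein-coding windows and 45.0% of all 35116 windows, and in 10 of the 21 windows of genes with an accessible start and 7 of the 11 without. CCAAT was in 9 (28.1%, beside 36.4% and 34.6%), namely COL4A1, COL4A2, COL4A5, COL4A6, COL5A3, COL11A1, COL17A1, COL25A1 and COL28A1. It was thus in 4 of 6 type IV windows, 2 fibrillar and 3 other. The windows of COL4A1 and COL4A2 overlap and share the GC box and CCAAT word printed above. Those of COL4A5 and COL4A6 overlap and share the 2 printed CCAAT words. These 4 windows are therefore not separate observations. TATAAA was in 5 (15.6%, beside 9.75% and 11.5%), all of the other class: COL6A2, COL6A6, COL7A1, COL13A1 and COL17A1. The E-box words CAGATG and CAGCTG, which proneural factors such as NGN2 can bind, were in 2 and 5 windows (6.25% beside 11.7% and 14.7%, and 15.6% beside 17.5% and 17.9%). COL7A1 and COL10A1 had the former. The AP-1 word TGACTCA was in 0 of 32, which allows up to 9.38% by a limit of 3 counts, beside 3.62% and 4.95%.

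An interval was counted inside a gene when its strongest summit lay there. Inside the genes, the median was 2.17 intervals per 100 kb of collagen gene, with quartiles at 0.62 and 3.70. The median over protein-coding genes was 0.77, but many of those are short and 48.8% held no interval by this rule, against 10 of 44 collagens (22.7%). Summed over gene bodies the densities were 2.13 intervals per 100 kb in collagens and 2.37 in protein-coding genes. By class they were 2.01 in fibrillar, 1.92 in basement membrane and 2.24 in other members. The direction of the difference varied between length classes, without a steady trend. Under 25 kb the medians were 2.85 for 4 collagens and 0 for protein-coding genes. Between 25 and 100 kb they were 1.20 for 14 collagens and 2.02 for protein-coding genes. Between 100 and 200 kb they were 3.02 for 12 collagens and 1.98, and over 200 kb 1.79 for 14 collagens and 2.11. In every class the quartile ranges of collagens and protein-coding genes overlapped, and no difference was tested.

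The 5 densest genes were COL2A1 (15.0 intervals per 100 kb), COL9A2 (5.95), COL1A1 (5.70), COL27A1 (5.68) and COL26A1 (4.58). COL9A2 and COL1A1 are short genes with 1 interval each, and COL26A1 and COL27A1 are longer genes with 9 intervals each. COL2A1, on chromosome 12 from 47972967 to 48006212, held 5 intervals in 33.2 kb. Their fold enrichments were 6.24, 2.26, 3.10, 4.87 and 3.64 in order of coordinate, with 465, 177, 198, 630 and 454 tags, and none of the 5 was within 1 kb of an outer end. The COL2A1 end nearest to these intervals had no summit within the limit, and the last of them, from 48004110 to 48004975, had its summit 1637 bp from it. COL1A2, on chromosome 7, held 1 interval, from 94417426 to 94418303, with 5.42 and 175 tags, and COL3A1, on chromosome 2, held none. COL1A1, on chromosome 17, had its strongest neighbour outside the gene, 22.5 kb beyond the low end, with 14.6 and 1355 tags (interval 1284 to 1429). By contrast COL4A5 (257.7 kb) and COL10A1 (98.2 kb) held none when intervals were placed by their strongest summit. The same held for COL3A1, COL6A1, COL6A2, COL6A3, COL7A1, COL9A3, COL11A2 and COL16A1. The end intervals of COL4A5, COL6A1 and COL10A1 reached into the gene, but their strongest summits lay outside it. Weaker summits of these intervals lay inside COL6A1 (4.35 and 379 tags) and COL4A5 (4.09 and 139 tags).

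Distal intervals, with no summit within 1 kb of an end of any annotated gene, were counted within 50 kb of either outer end, inside or outside the gene. The median was 3 for collagens (quartiles 2 and 5), beside 2 for protein-coding genes (quartiles 1 and 4). Medians were 3 for fibrillar, 3.5 for basement membrane and 3 for other members. At least 5 distal intervals were found at 15 of 44 collagens (34.1%), beside 15.0% of protein-coding genes. The share rises with length in all genes: it was 32.3% between 100 and 200 kb and 35.0% above, where collagens had 7 of 12 and 4 of 14. Between 25 and 100 kb it was 16.8%, and 3 of 14 in collagens. COL3A1, COL4A5 and COL22A1 had 0. The 5 beaded filament genes had 1 or 2 each.

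**Figure D5:**
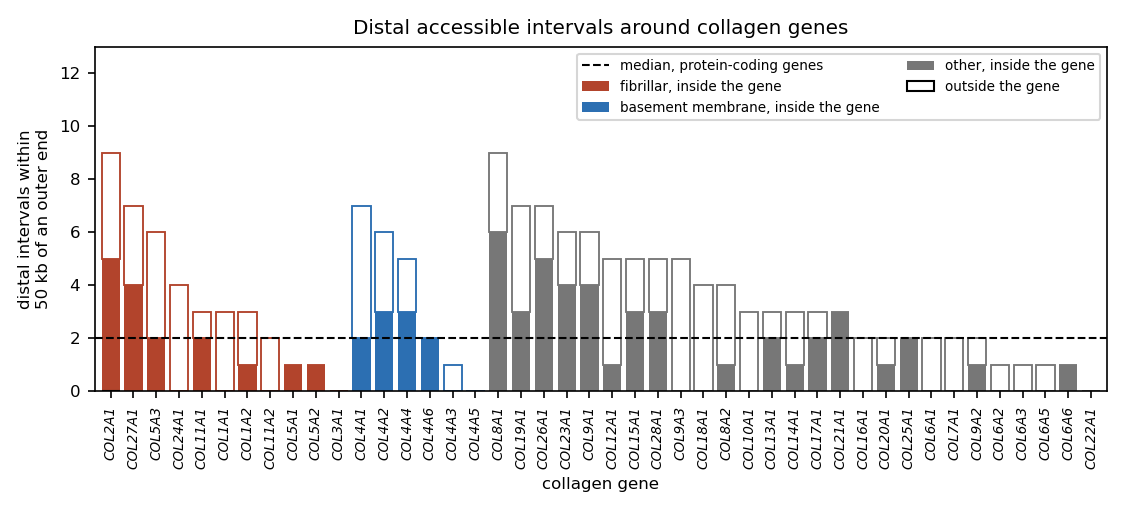
Number of distal intervals within 50 kb of an outer end (y axis) for each of the 44 collagen genes (x axis), split into those inside the gene (filled) and outside (open) and coloured by class; the dashed line is the protein-coding median of 2. COL2A1 and COL8A1 reach 9, and COL3A1, COL4A5 and COL22A1 have 0.

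COL2A1 and COL8A1, a network chain of vessel walls, had the most with 9 each, 5 and 6 of them inside the gene. COL4A1, COL19A1, COL26A1 and COL27A1 had 7 each, and COL4A2, COL5A3, COL9A1 and COL23A1 had 6 each. At COL8A1 the strongest inside the gene had a fold enrichment of 9.58 and 378 tags (interval 341 to 418). The strongest distal interval inside any member was in COL26A1, with 10.9 and 527 tags at a summit 1.22 kb from its listed start. Another summit of that interval lay 982 bp from the start, so the interval is distal to gene ends but not to the start. The next was in COL4A4, with 10.8 and 338 tags, 56.9 kb from its listed start. COL25A1 had one of 9.41 and 395 tags, 27.4 kb inside. The 129 distinct distal intervals inside members had a median fold enrichment of 4.92 and 196 tags, beside 5.05 and 205 tags for all 23716 distal intervals inside protein-coding genes. Neighbouring members share some: 14 of the 279 distinct intervals in or within 50 kb of collagens were counted for more than 1 gene.

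Genes that handle collagen chains were compared on the same measure, beside the 68.8% of all protein-coding genes with an accessible end. Of 20 folding and modification genes, 19 had an accessible end (interval 76.4 to 99.1%), with a median fold enrichment of 9.48. The galactosyltransferases COLGALT1 and COLGALT2 had 15.7 and 6.72, CRTAP, part of a prolyl hydroxylation complex, had 9.08, and FKBP10, a proline isomerase, had 4.22. The exception, P3H2, was accessible at a listed start. Of 13 processing and crosslinking genes 12 were accessible (92.3%, interval 66.7 to 98.6%, median 5.27), PCOLCE being the exception. ADAMTS14, ADAMTS2 and ADAMTS3, which remove propeptides at the amino end, had 3.25, 2.74 and 11.0, and BMP1, which acts at the carboxyl end, had 5.13. Of 10 collagen receptor genes 6 were accessible (interval 31.3 to 83.2%, median 7.32), and DDR2, GP6, LAIR1 and ADGRG1 were not, although ADGRG1 was accessible at a listed start. The intervals of the receptors and of the processing and crosslinking genes contain the share of all protein-coding genes. The receptor kinase DDR1 had 7.63, and the integrin chains ITGA1, ITGA10 and ITGA11 had 7.01, 11.3 and 6.42. Among the 15 laminin and basement membrane partner genes 13 were accessible (86.7%, interval 62.1 to 96.3%, median 8.09), and LAMB3 and LAMC3 were not. That interval also contains the share of all protein-coding genes. AGRN and HSPG2, which encode heparan sulfate proteoglycans, had 8.61 and 8.42, and the laminin chains LAMA1 and LAMA2 had 4.58 and 9.17. The interval of the folding list, 76.4 to 99.1%, lies above that of the collagens, 42.2 to 70.3%. The 2 groups also differ in promoter class. CpG-rich windows made up 86.7% of the 15 folding promoters at hand and 59.4% of collagen promoters. Of all CpG-rich protein-coding genes 90.4% had an accessible end, a share within the folding interval. The difference between folding genes and collagens was not tested.

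Marker lists of cell types were read in the same way. Of 14 neuron markers 12 had an accessible end (85.7%, interval 60.1 to 96.0%), and the others, RBFOX3 and ELAVL4, were accessible at a listed start. The counts were 7 of 12 for fibroblast and mesenchyme markers (58.3%, interval 32.0 to 80.7%), 3 of 10 for pluripotency markers (30.0%, interval 10.8 to 60.3%) and 2 of 8 for endothelial markers (25%, interval 7.15 to 59.1%), beside 68.8% of all protein-coding genes. The neuron and fibroblast intervals contain that share, and the pluripotency and endothelial intervals lie below it. All pluripotency markers except DNMT3B are under 25 kb long. Of all protein-coding genes under 25 kb, 59.0% had an accessible end, a share within the pluripotency interval. Of the pluripotency markers without an accessible end, DPPA4 was accessible at a listed start. Median fold enrichments at accessible ends were 7.60 for neuron, 5.62 for fibroblast and mesenchyme, 3.90 for pluripotency and 5.73 for endothelial markers, beside 5.41 for the collagens and 10.4 for all accessible protein-coding genes. Of the fibroblast and mesenchyme markers DCN, POSTN, THY1, PDGFRA and TWIST2 had none at an outer end, although PDGFRA had one at a listed start. Whether such cells contribute to the collagen summits was not tested.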

How the data were processed

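ATAC-seq libraries of 3 biological replicates were combined by the authors into 1 peak list, named in the labels as the optimal set by irreproducible discovery rate. Per the submitters' processing notes the build is hg38. The aligner, peak caller and filters are not given in the sources used here. The authors deposited per summit a score from 540 to 1000, a fold enrichment as a linear ratio (1.29 to 31.9), and p-values as −log10. Depth per sample is unknown.

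Tag counts were recovered from ratio and −log10 p under a Poisson tail, within 0.00079 units of −log10 p at every entry, and ranged from 58 to 3783. Entries with equal bounds were merged, keeping the summit of highest −log10 p. Summit positions are the interval start plus the offset, counted from 1. Gene bounds and promoter windows are from RefSeq, GRCh38.p14; of 102 genes in 8 lists, 101 matched on the current symbol and 1 on a synonym. The lists and members were chosen with earlier results of these data known. All members are named; full values go to the type IV pairs, COL1A1, COL1A2, COL2A1 and COL3A1, and the members highest in each measure. The sequence rule (highest and lowest fold enrichment per class) was narrowed to starts at an outer end, so COL5A1 and COL12A1 replaced COL24A1 and COL6A6. Of the pathway and marker lists, at most 4 accessible genes in alphabetical order and any 5 or fewer exceptions are named. DPPA4 is named as well, for its listed start. Alternatives were other windows, summit choices, thresholds and class limits. The code was tested on simulated data. Python 3.11.15, numpy 2.4.6, scipy 1.17.1, pandas 2.3.3 and matplotlib 3.10.9 were used.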

Additional observations from a re-analysis of the deposited data

How the results depend on the processing

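Of 50 alternative values for 10 results, 44 stayed within the Wilson 95% interval of the reported share or within 1.5 times of the reported median. These intervals are wide in small classes, so staying inside one does not show that a share is stable. The fibrillar interval of 28.0 to 78.7%, for instance, holds both 36.4% and 72.7%. The median of 2.17 intervals per 100 kb became 4.87 with all summit entries and 0.60 with intervals above the median fold enrichment. The median of 3 distal intervals became 7 with every summit entry counted, 5.5 within 100 kb, and 1 both within 20 kb and for the stronger intervals alone. These follow from how many intervals each setting admits. The share of accessible collagen ends ran from 47.7% within 500 bp to 63.6% within 2 kb, beside 65.6% and 72.4% of protein-coding genes. At 500 bp COL1A1, COL11A2, COL13A1 and COL26A1 lost the call, and at 2 kb COL2A1, COL9A2 and COL27A1 gained it. The share with an accessible outer end ran from 11.1% to 33.3% in shorter genes and from 73.1% to 84.6% in longer genes. At listed starts, known for fewer genes, the shares were 18.2% (2 of 11) and 90.5% (19 of 21). These alternatives and the counting of shared intervals once were chosen after seeing the data. The basement membrane share was 100% in each setting but 1, 87.5% with COL15A1 and COL18A1 added. The fibrillar share ran from 36.4% within 500 bp, below the 40.7% of the other class there, to 72.7% within 2 kb; with the strongest summit of each interval alone the shares were 45.5% and 48.1%, again with the fibrillar class lower. No paired analysis was possible because there is only 1 group of samples and per-sample values are not analysed here, which also prevented leaving out a replicate.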
